A study of Homo sapiens with 6 samples.

Results

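The genes described here are the human heat shock proteins, the DNAJ co-chaperones, the BAG proteins and the heat shock factors measured by RNA-seq in cells labelled HT29, an established human colorectal cancer cell line. They were chosen by symbol alone: HSPA or HSPB with a number and an optional A, B or L, DNAJA, DNAJB or DNAJC with a number, BAG1 to BAG6, HSF1, HSF2, HSF4, and HSPD1, HSPE1, HSPH1, HSP90AA1, HSP90AB1, HSP90B1 and TRAP1. The rule found 82 of the 56638 gene symbols listed for each library. Symbols with anything after the pattern, such as most pseudogenes and readthrough transcripts, fall outside it. HSPA7 and DNAJB3, which GENCODE annotates as pseudogenes, match and are counted.

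Cells labelled HT29 were transfected with siRNA against RNF6, a RING-finger ubiquitin ligase, or with a nonspecific control siRNA, and total RNA was sequenced from 3 libraries of each group. Both groups were wild-type cells of 1 line. Neither the siRNA sequences nor their number or the time after transfection is stated in the labels. Nor do they say whether the 3 libraries of a group were grown or transfected apart. The tests therefore rest on the variation among libraries, and this could be technical variation alone. Levels are given as CPM, the reads of a gene scaled to a common total of reads assigned to genes (TMM scaling), and each mean has its SD over 3 libraries.

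Heat shock proteins bind unfolded or partly folded proteins. HSP70 proteins cycle between ATP- and ADP-bound states, in which DNAJ proteins (also called J-domain proteins) stimulate ATP hydrolysis and deliver substrates, and BAG and HSP110 proteins act as nucleotide exchange factors. HSP90 completes the folding of kinases and receptors, small heat shock proteins hold aggregating proteins, and HSPD1 with its lid HSPE1 forms the folding chamber of the mitochondrial matrix. HSF1 is the transcription factor that raises many cytosolic chaperone genes when unfolded proteins accumulate, by binding repeats of the letters GAA and their reverse complement TTC in alternation (heat shock elements). The chaperones of the endoplasmic reticulum (ER) are raised mainly by other factors, through the ER stress element.

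Because these elements are what connects the chaperone genes to their regulators, the 250 bases upstream of the start sites were searched on both strands in RefSeq's sequences (build GRCh38.p14). In all, 71 of the 82 genes matched, with 94 start sites; HSF1, HSPA14 and DNAJC22 were among those without a match. The element GAANNTTCNNGAA, of 3 repeats, was found before 6 of the 94 start sites (6.38%), against 0.441% of all 35116 start sites. It also contains the shorter element of 2 repeats, GAANNTTC, which was found before 18.1% of these start sites and 5.78% of all. The 6 genes with 3 repeats were HSPA8, HSPD1, HSP90AA1, HSP90AB1, DNAJB6 and HSPA6, and HSPA8 and HSP90AB1 each hold another copy of it. The following stretches are shown because these genes all carry the element while their RNA did not move alike in the libraries. They run 5′ to 3′ on the strand of the gene, and capitals mark the element (in HSPD1, a run that holds it on both strands).
HSPA8 (chr11:123062171-123062199, minus strand): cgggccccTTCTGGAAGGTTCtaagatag
HSPD1 (chr2:197500062-197500090, minus strand): gcattTTCTGGAAAGTTCTGGAAccgagc
HSP90AA1 (chr14:102087112-102087140, minus strand): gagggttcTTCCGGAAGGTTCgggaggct
HSP90AB1 (chr6:44247770-44247798, plus strand): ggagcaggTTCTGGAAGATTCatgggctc
Of these, HSPA8 was lower, HSPD1 was higher, and the HSP90 genes did not pass the test. The place of the element differs: 55 to 43 bases before the start site in HSPA8, 88 to 76 in HSP90AA1 and 165 to 153 in HSP90AB1. In HSPD1 the run is longer (18 bases) and lies 245 to 228 bases before a start site. The printed stretches of HSPA8, HSPD1 and HSP90AA1 lie wholly under annotated exons, and that of HSP90AB1 under none. A match is a description of the letters, and no binding was measured.

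The ER stress element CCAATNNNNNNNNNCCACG was found before 2 of the 94 start sites (2.13%), against 0.0740% of all. Both are ER chaperones, HSP90B1 and HSPA5, and they are shown because only the first passed the test.
HSP90B1 (chr12:103930211-103930239, plus strand): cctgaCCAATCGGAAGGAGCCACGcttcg
HSPA5 (chr9:125241386-125241414, minus strand): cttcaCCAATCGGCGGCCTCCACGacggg
HSP90B1 holds a second copy in the opposite orientation nearer its start (chr12:103930316-103930344), and HSPA5 has 1 copy within the 250 bases. Both HSP90B1 stretches lie wholly under annotated exons, and that of HSPA5 under none.

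The libraries held 7173957, 9096826 and 9366532 gene reads after control siRNA and 11051552, 6808771 and 11071456 after RNF6 siRNA. RNF6 itself was at 54.2, 45.1 and 57.7 CPM in the control libraries and at 16.4, 16.2 and 16.8 in the RNF6 siRNA libraries, 3.17-fold lower (log2 fold change -1.66, adjusted p = 2.12e-06, edgeR's quasi-likelihood test), so the labels match the target. Across all 14685 genes with enough reads to test, 32.7% passed an adjusted p of 0.05 (called), 16.6% higher and 16.1% lower after RNF6 siRNA. Among the epithelial markers, KRT8 was the most abundant, at 3056 ± 441 CPM in controls and 1252 ± 104 after RNF6 siRNA, while VIL1, CEACAM5 and LGALS4, which mark intestinal epithelium, were at or below 0.301 CPM in both groups. The near absence of these 3 goes against the colorectal label in all 6 libraries, whereas the epithelial genes EPCAM and CDH1 and the intestinal factor CDX2 (15.8 ± 2.48 and 16.0 ± 0.823 CPM) were present. HT29 is therefore the name the labels give, and the identity of the line was not tested here. The 10 epithelial markers sum to 4338 to 5638 CPM in controls and 2437 to 2821 after RNF6 siRNA, 4 of 7 tested, all keratins, being lower; EPCAM and CDH1 had no call. The 13 markers of stromal, blood, vessel and liver cells sum to 52.8 to 69.2 and 71.8 to 86.3 CPM, nearly all of it COL1A1 (56.6 ± 7.13 and 75.3 ± 7.43), and PECAM1 had no read. Only 2 of these 13 had enough reads to test: COL1A1 was higher (adjusted p = 0.0197), and VWF, a vessel marker on 79 reads in all, was 2.02-fold lower (adjusted p = 0.0283). Their part in the results was not tested. In bulk RNA, fewer cells of a type and less RNA per cell cannot be told apart.

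Of the 82 chaperone and HSF genes, 71 had enough reads to test. After RNF6 siRNA 19 were lower and 5 higher, while 47 did not pass the test. In all 33.8% of the tested genes were called, a share near the background of 32.7%; 26.8% were lower (background 16.1%) and 7.04% higher (background 16.6%). The median log2 fold change was -0.12, against 0.01 over all tested genes, with a range of -1.23 to 0.68. The groups did not overlap in 34 of 71 genes, with 44.2% over all genes. Changes were mostly small: 12 called genes reached 1.5-fold (16.9%, background 17.2%) and 2, HSF1 and DNAJB13, reached 2-fold (background 5.74%). Their summed level hardly moved, at 15967 to 16574 CPM in controls and 16031 to 16362 after RNF6 siRNA.

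**Figure D1:**
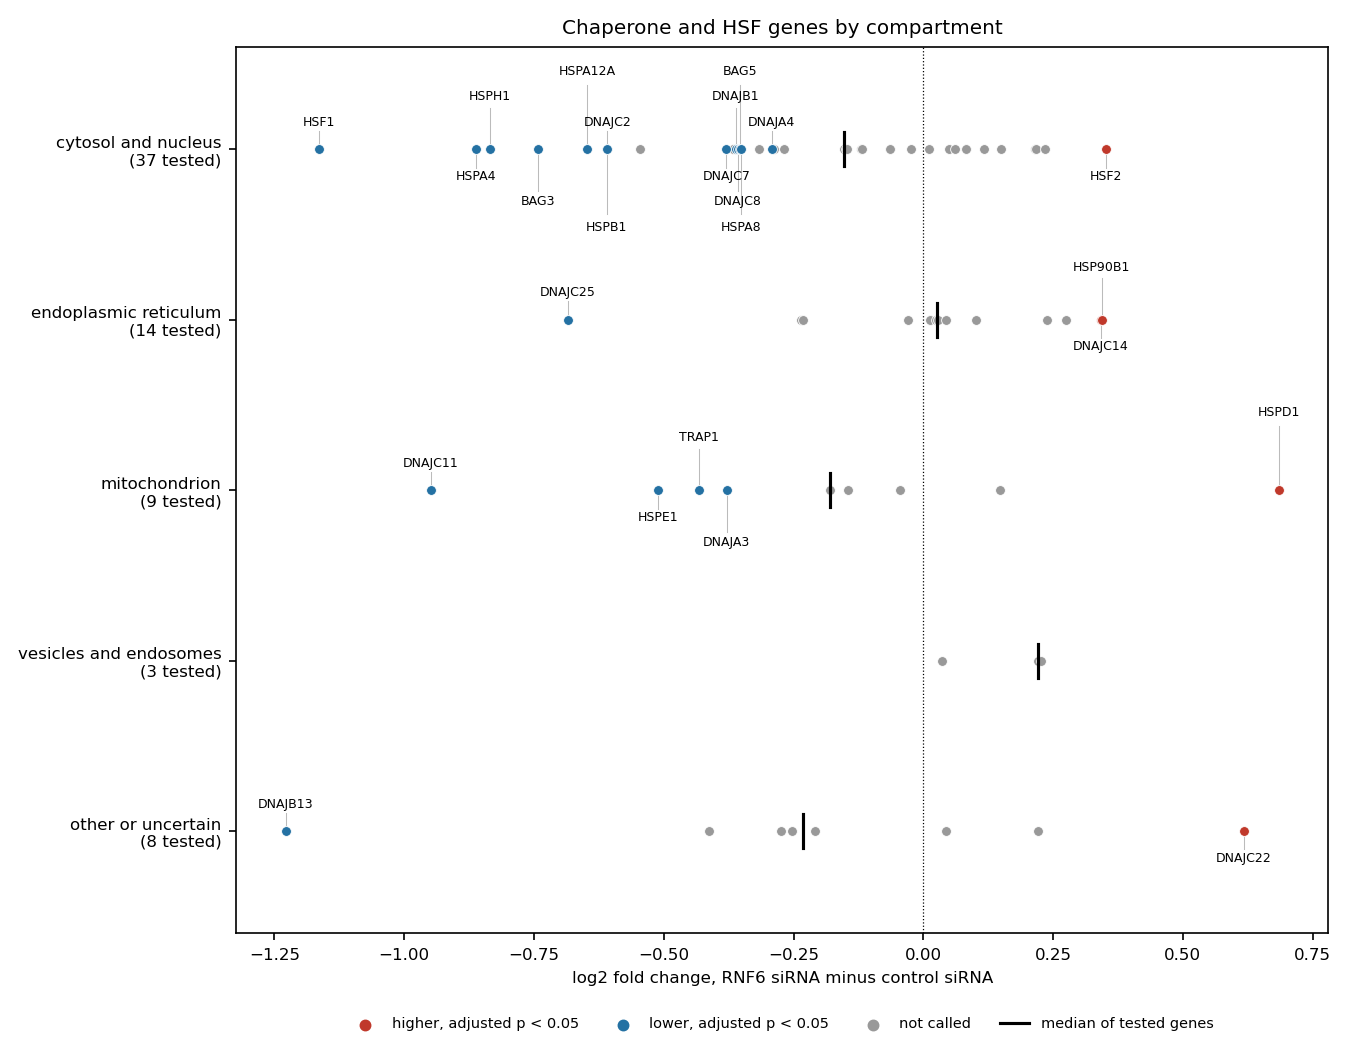
Log2 fold change (RNF6 siRNA minus control siRNA) of each tested chaperone or HSF gene, by compartment; red and blue points passed an adjusted p of 0.05, grey points did not, and black bars are medians. In the cytosol and nucleus 13 of 37 were lower and 1 higher, with HSF1 farthest left there, while HSPD1 stands alone on the right of the mitochondrial genes.

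By compartment, the lower calls lay mainly in the cytosol and nucleus and in the mitochondrion. Of 37 tested cytosolic and nuclear genes, 13 were lower and 1 was higher (37.8% called against 32.7% over all genes, and 35.1% lower against 16.1%; median -0.15). Of 14 ER genes, 1 was lower and 2 were higher (median 0.03), so that 21.4% were called, below the share over all genes. Of 9 mitochondrial genes, 4 were lower and 1 was higher (55.6% called, median -0.18). The 3 vesicle genes had no call, and among 8 genes of other or uncertain location 1 was lower and 1 higher. No test compared the compartments.

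The summed levels moved in different directions. Cytosolic and nuclear genes summed to 10720, 11436 and 10974 CPM in the controls and 10540, 10289 and 10403 after RNF6 siRNA. The ER genes summed to 3325, 3186 and 3129 CPM and then to 3514, 3863 and 3422. The mitochondrial genes summed to 1568, 1577 and 1489 CPM and then to 1817, 1800.1 and 1782. In each case the groups did not overlap: the cytosolic sum was lower after RNF6 siRNA, and the ER and mitochondrial sums were higher. The mitochondrial sum was higher although 4 of its genes fell; HSPD1, its most abundant gene, went from 670.0 ± 39.4 to 1076 ± 17.7 CPM. Without HSPD1 the other mitochondrial genes summed to 862 to 896 CPM in controls and 711 to 733 after RNF6 siRNA, which is lower. Without HSP90B1 the ER sums were 1941, 1894 and 1860 CPM in controls and 1892, 2045 and 1857 after RNF6 siRNA, and the groups overlapped. Without HSPA8 the cytosolic and nuclear sums were 9195, 9584 and 9286 CPM in controls and 9124, 9072 and 9069 after RNF6 siRNA. These groups still did not overlap, but they lay close together. HSPD1, HSP90B1 and HSPA8 were taken out after their values were seen.

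The factor HSF1 was at 83.1, 117 and 111 CPM in the control libraries and at 54.8, 39.1 and 44.1 after RNF6 siRNA. Every RNF6 siRNA library was below every control. The mean fell from 103 ± 17.9 to 46.0 ± 8.02 CPM, 2.24-fold lower (log2 fold change -1.16, 95% interval -1.49 to -0.84, adjusted p = 1.04e-04). HSF2, a relative that can pair with HSF1, was at 50.1, 49.5 and 46.6 CPM in controls and 59.0, 69.0 and 58.8 after RNF6 siRNA, 1.28-fold higher (adjusted p = 0.0242). The HSF2 groups did not overlap, but its call was lost on leaving out control 3 (adjusted p = 0.136), RNF6 siRNA 2 (0.0935) or RNF6 siRNA 3 (0.0572). HSF4, best known from the lens, was scarce, at 6.26 ± 1.67 and 6.15 ± 0.959 CPM (adjusted p = 0.947).

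Of the 3 HSP110 genes, whose proteins exchange nucleotide on HSP70, 2 were lower and the other did not pass the test. That is 66.7% lower, against 16.1% over all genes, in a family of only 3. HSPA4 was at 455, 483 and 461 CPM in controls and 251, 263 and 256 after RNF6 siRNA, 1.82-fold lower (adjusted p = 1.87e-05, log2 fold change -0.86, SE 0.0882). HSPH1 was at 215, 212 and 213 CPM and then 116, 116 and 126, 1.78-fold lower (SE 0.0909, adjusted p = 2.94e-05). The libraries of each group lay close together in both genes, far from the other group. HSPA4L, the least abundant of the 3, was at 111, 87.9 and 98.5 CPM in controls and 74.5, 83.1 and 85.8 after RNF6 siRNA; the groups did not overlap, but it did not pass the test (adjusted p = 0.0683). Together the 3 genes summed to 773 to 782 CPM in controls and 442 to 468 after RNF6 siRNA.

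**Figure D2:**
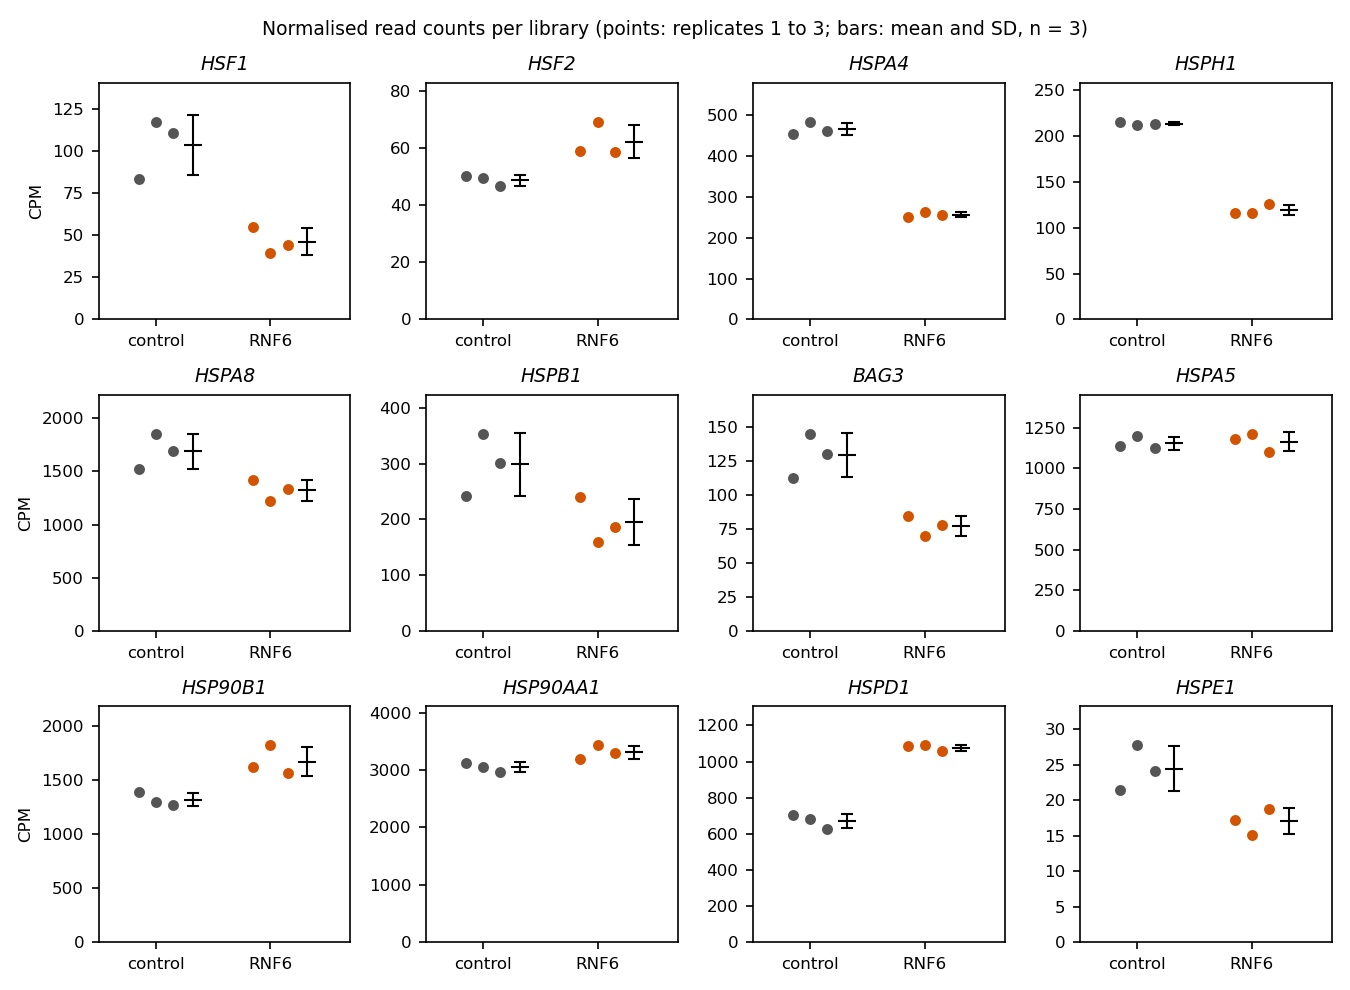
Normalised read counts (CPM, linear axes from 0) of 12 genes in each library; points are replicates 1 to 3 and bars the mean and SD of 3 libraries. HSPA4, HSPH1 and HSPD1 show groups far apart with tight replicates, HSPB1 nearly touches (control 1 beside RNF6 siRNA 1), and HSPA5 overlaps.

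Among the HSP70 genes, the constitutive cytosolic HSPA8 was at 1526, 1852 and 1687 CPM in controls and 1416, 1218 and 1333 after RNF6 siRNA. The highest RNF6 siRNA library was below the lowest control, and the difference was 1.28-fold lower (adjusted p = 0.0213, log2 fold change -0.35, SE 0.105). Leaving out 1 of 4 libraries ended this call, with adjusted p of 0.0536 (control 2), 0.0731 (control 3), 0.0985 (RNF6 siRNA 2) and 0.0621 (RNF6 siRNA 3). HSPA12A, a distant member of the family, was at 65.4, 63.1 and 69.7 CPM and then 41.99, 43.0 and 41.6, 1.57-fold lower (adjusted p = 4.17e-04).

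The stress-inducible HSP70 genes did not pass the test. HSPA1B was at 84.9 ± 10.2 CPM in controls and 76.4 ± 7.86 after RNF6 siRNA (adjusted p = 0.351), and HSPA1A at 1.997 ± 0.377 and 1.63 ± 0.632 (adjusted p = 0.419). These are nearly identical copies, so how reads were divided between them is uncertain. HSPA6, which is all but silent without stress in most cells, had 8 reads over all libraries, HSPA1L 17 and HSPA7 1.

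The cytosolic HSP90 genes were the most abundant of all members in these libraries. HSP90AA1, the inducible form, was at 3130.2, 3059 and 2969 CPM in controls and 3199, 3428 and 3296 after RNF6 siRNA. HSP90AB1, the constitutive form, was at 2942, 3082 and 2989.8 CPM and then 3249, 3075 and 3212. HSP90AA1 was above the controls in every RNF6 siRNA library and HSP90AB1 overlapped, and neither passed the test (adjusted p = 0.361 and 0.526). Their 95% intervals of the log2 fold change, -0.08 to 0.31 and -0.12 to 0.28, do not reach a fall of the size seen in HSPA4 or HSPH1.

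Small heat shock proteins were represented mainly by HSPB1 (HSP27), a holdase of the cytosol. It was at 242, 354 and 302 CPM in controls and 241, 160.2 and 186 after RNF6 siRNA, 1.53-fold lower (adjusted p = 0.00970, log2 fold change -0.61, SE 0.156). The groups only just fail to overlap, with control 1 beside RNF6 siRNA 1, and the call was lost without RNF6 siRNA 2 (adjusted p = 0.0576) or RNF6 siRNA 3 (0.0525). HSPB8, the partner of BAG3 in selective autophagy, was at 22.7 ± 2.46 and 18.2 ± 2.47 CPM (adjusted p = 0.0983). HSPB11, at a log2 fold change of -0.25, did not pass either (adjusted p = 0.0869), and HSPB2, HSPB3, HSPB6, HSPB7 and HSPB9 had 0 to 17 reads in all.

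BAG3, which links HSP70 to small heat shock proteins and autophagy, was at 113, 145 and 130.4 CPM in controls and 84.2, 69.6 and 77.9 after RNF6 siRNA. It was 1.67-fold lower (adjusted p = 4.67e-04, log2 fold change -0.74, SE 0.118), with all RNF6 siRNA libraries below all controls. BAG5 was at 73.5, 64.4 and 68.0 CPM and then 49.9, 57.7 and 53.7, 1.28-fold lower (adjusted p = 0.0226), a call lost without control 3 (0.0751), RNF6 siRNA 1 (0.0852) or RNF6 siRNA 3 (0.0830). The other 4 BAG genes had no call; the most abundant, BAG6, which guards tail-anchored and mislocalised proteins, was at 234 ± 24.6 and 224 ± 21.3 CPM.

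**Figure D3:**
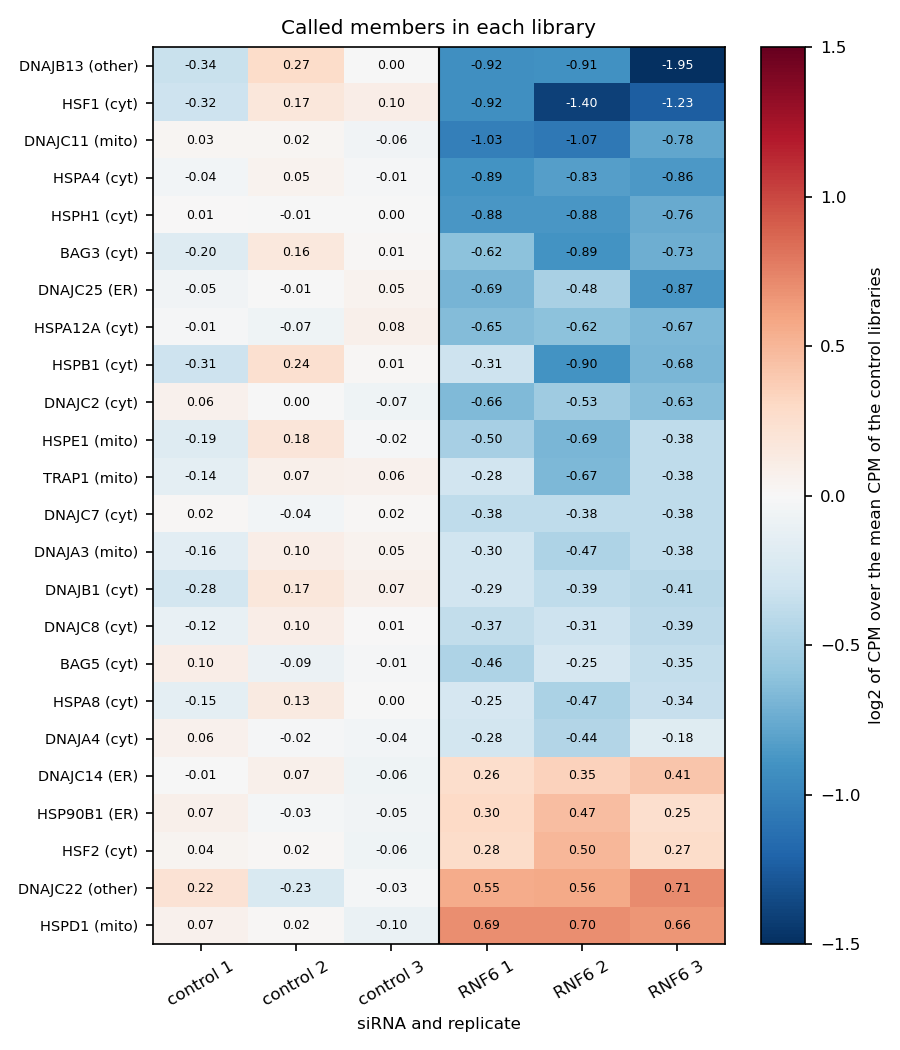
The 24 called genes in each library, as log2 of CPM over the mean of the 3 control libraries; blue is lower and red higher, and the line divides control from RNF6 siRNA libraries. Every gene has 1 colour across the 3 RNF6 siRNA libraries. Control 1 sits below the other controls in HSF1, BAG3, HSPB1 and DNAJB1, and also in further lower genes such as HSPE1, TRAP1, HSPA8, DNAJA3 and DNAJC8.

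Of the 40 tested DNAJ genes, 9 were lower and 2 higher (27.5% called, below the 32.7% over all genes; 22.5% lower against 16.1%), and their median log2 fold change was -0.04. In the cytosol, DNAJB1, the main HSP40 of the heat shock response, was at 201, 273 and 256 CPM in controls and 199, 186 and 183 after RNF6 siRNA, 1.28-fold lower (adjusted p = 0.0292). Control 1 lies next to the RNF6 siRNA libraries there, and the call was lost without control 2 (0.0772), control 3 (0.118), RNF6 siRNA 2 (0.0880) or RNF6 siRNA 3 (0.109). DNAJA4 was at 89.7, 84.6 and 83.5 CPM and then 70.9, 63.3 and 75.9 (1.22-fold lower, adjusted p = 0.0483), the call nearest the threshold, and was lost under 10 of 13 alternative settings. DNAJA1, the most abundant DNAJ gene, was at 282 ± 15.1 and 294 ± 8.995 CPM (adjusted p = 0.648). DNAJB6, an anti-aggregation chaperone with a heat shock element of 3 repeats, had a log2 fold change of -0.27 and groups that did not overlap, and it did not pass the test (adjusted p = 0.0625).

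Of the 6 cytosolic and nuclear DNAJC genes, 3 were lower and none higher (50% called against 32.7% over all genes, 50% lower against 16.1%). DNAJC2, which works at the ribosome on new chains, was at 48.4, 46.2 and 44.3 CPM in controls and 29.2, 32.1 and 29.9 after RNF6 siRNA, 1.52-fold lower (adjusted p = 9.61e-04). DNAJC7, which binds both HSP70 and HSP90, was at 94.4, 90.5 and 94.1 CPM and then 71.5, 71.7 and 71.2, 1.30-fold lower (adjusted p = 0.00870). DNAJC8, found with splicing factors, was at 119 ± 8.79 and 92.9 ± 2.68 CPM, 1.28-fold lower (adjusted p = 0.0147), and was lost without control 3 (0.0651) or RNF6 siRNA 3 (0.0716). The groups of DNAJC2 and DNAJC7 stood well apart in every library, but the DNAJC7 call was lost with replicate number in the fit (adjusted p = 0.0705). The other 3 did not pass: DNAJC9 had a log2 fold change of -0.15, DNAJC17 of 0.05 and DNAJC21 of 0.22 (adjusted p = 0.122), with DNAJC21 higher in every RNF6 siRNA library than in any control.

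In the ER, the HSP90 paralogue was higher while the HSP70 paralogue was not called. HSP90B1 (GRP94) was at 1384, 1292 and 1269 CPM in controls and 1622, 1818 and 1565 after RNF6 siRNA, 1.27-fold higher (adjusted p = 0.0169, log2 fold change 0.34, SE 0.0979). All RNF6 siRNA libraries were above all controls, but the call was lost without control 3 (0.108) or RNF6 siRNA 2 (0.0849). HSPA5 (BiP), the ER HSP70 and a standard readout of ER stress, was at 1136, 1198 and 1127 CPM and then 1179.9, 1212 and 1099, a log2 fold change of 0.01 with a 95% interval of -0.19 to 0.21 (adjusted p = 0.934). The interval lies within 1.5-fold in either direction.

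Of the ER J-domain genes, DNAJC25 was at 26.6, 27.5 and 28.6 CPM in controls and 17.1, 19.7 and 15.1 after RNF6 siRNA, 1.61-fold lower (adjusted p = 0.00154). DNAJC14 was at 22.4, 23.7 and 21.6 CPM and then 26.95, 28.7 and 30.03, 1.27-fold higher (adjusted p = 0.0365), but 58.1% of its exon length lies under exons of other genes and its call was lost under 8 of 13 alternatives. The other 9 did not pass, among them the secretory co-chaperones DNAJC10 (170.2 ± 18.001 and 174 ± 21.3 CPM), DNAJB11 (158 ± 10.8 and 159.6 ± 9.40 CPM) and DNAJB9, which rises in ER stress (log2 fold change -0.23, adjusted p = 0.170). HSPA13, a microsomal HSP70, had the largest standard error of the ER genes, at 76.9, 41.97 and 54.7 CPM and then 54.6, 85.6 and 70.0 (adjusted p = 0.315). Without control 1 it was called higher (adjusted p = 0.00864).

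In the mitochondrion, the counted reads of the barrel and lid genes of the folding chamber went in opposite directions, those of the lid less securely. HSPD1 (HSP60) was at 703, 681 and 626 CPM in controls and 1084, 1089 and 1056 after RNF6 siRNA, 1.61-fold higher (log2 fold change 0.68, 95% interval 0.48 to 0.88, adjusted p = 1.43e-04). HSPE1 (HSP10) was at 21.4, 27.7 and 24.1 CPM and then 17.2, 15.2 and 18.8, 1.42-fold lower (log2 fold change -0.51, 95% interval -0.81 to -0.21, adjusted p = 0.0128). The groups of neither gene overlapped. These genes lie head to head on chromosome 2, with RefSeq start sites 105 bases apart (197500274 for HSPD1 on the minus strand and 197500379 for HSPE1 on the plus strand), and HSPD1 has another start site 539 bases from that of HSPE1. The heat shock element printed above lies between both HSPD1 start sites.

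The HSPE1 value is the less secure of the pair. HSPE1 had 1132 reads over all libraries, against 48150 for HSPD1. Of the HSPE1 exon length, 23.9% lies under exons of HSPD1 or of the HSPE1-MOB4 readthrough. The readthrough had 0 reads in every library, which does not show that no reads fell on the shared exons. Whether the RNA of HSPE1 fell as its counted reads did was not tested. The 26 pseudogenes of HSPE1 hold reads equal to 18.8% of its own. The call was lost without RNF6 siRNA 2 (adjusted p = 0.0543) or with replicate number in the fit (0.0643, both edgeR's quasi-likelihood test). Reads listed as ambiguous (8.27% to 9.11% of a library) or not unique (11.4% to 12.5%) were left out. How many of them came from HSPE1 is not known. The 15 pseudogenes of HSPD1 hold reads equal to 2.58% of its own. Whether the counting used strand was not given in the sources used here.

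Of the other mitochondrial genes, DNAJC11, linked to cristae organisation, was at 58.2, 57.8 and 54.7 CPM in controls and 27.9, 27.1 and 33.1 after RNF6 siRNA, 1.93-fold lower (adjusted p = 6.00e-05, log2 fold change -0.95, SE 0.114), with 27.9% of its exon length under exons of other genes. TRAP1, the mitochondrial HSP90, was at 89.6, 104 and 103 CPM and then 81.3, 62.1 and 76.1, 1.35-fold lower (adjusted p = 0.0146), with 29.3% of its exon length under exons of other genes. DNAJA3, a J-domain partner of the matrix HSP70, was at 96.0, 114 and 111 CPM and then 86.9, 77.5 and 82.6, 1.30-fold lower (adjusted p = 0.0154). All 3 had every RNF6 siRNA library below every control. The TRAP1 call was lost without control 3 (0.0691) or RNF6 siRNA 2 (0.0635), and the DNAJA3 call without control 3 (0.0756), RNF6 siRNA 2 (0.0607) or RNF6 siRNA 3 (0.0617). HSPA9 (mortalin), the matrix HSP70 itself, was at 550.4, 541 and 521 CPM and then 472, 485 and 467; the groups did not overlap, and it did not pass the test (adjusted p = 0.135).

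Of the remaining genes, DNAJC22 was at 28.8, 21.2 and 24.4 CPM in controls and 36.4, 36.6 and 40.5 after RNF6 siRNA, 1.53-fold higher (adjusted p = 0.00307). DNAJB13, known from sperm flagella, was 2.34-fold lower (adjusted p = 0.0342) on only 53 reads in all, at 1.097, 1.67 and 1.38 CPM and then 0.733, 0.736 and 0.358, and was lost under 7 of 13 alternatives. DNAJC5, the cysteine-string protein of secretory vesicles, was at 142 ± 7.93 and 165 ± 10.6 CPM (adjusted p = 0.0958).

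Levels of different genes were compared per kilobase of annotated exon (RPKM, with GENCODE exon lengths of another build than the counts, hence approximate). The lengths join all annotated exons of a gene, whichever transcripts the cells make, so the order depends on them. HSP90AB1 and HSP90AA1 had similar CPM, and the lengths used for them were 2980 and 5248 bases. In the controls HSP90AB1 led with 1008 ± 23.9 RPKM, followed by HSP90AA1 (582 ± 15.4), HSPA8 (348 ± 33.6), HSPA5 (295 ± 9.96), HSP90B1 (280.1 ± 12.9), HSPB1 (183 ± 34.3) and HSPD1 (158 ± 9.28). HSPA5 and HSP90B1, and HSPB1 and HSPD1, are neighbours that lie within about their spread. After RNF6 siRNA, HSP90B1 (355 ± 28.2 RPKM) stood above HSPA5 (298 ± 14.9) and HSPA8 (273 ± 20.6), and HSPD1 (254 ± 4.18) above HSPB1 (119.8 ± 25.2). The HSP90 genes kept the first places.

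Partner genes outside the symbol rule were taken from lists by role. These lists were made by hand with earlier results of these data known, so their shares of calls may not be independent of those results. Of 16 tested cytosolic co-chaperones, 2 were higher and 3 lower (median log2 fold change -0.19), and the 31.2% called is near the 32.7% over all genes. TOMM34, which carries precursors to mitochondria with HSP70 and HSP90, was at 59.4 ± 4.08 CPM in controls and 25.2 ± 2.28 after RNF6 siRNA, 2.35-fold lower (adjusted p = 9.23e-06). UNC45A, a myosin-folding partner of HSP90, was at 87.6 ± 13.1 and 162 ± 8.05 CPM, 1.85-fold higher (adjusted p = 1.26e-04). ST13 (HIP), which stabilises the ADP-bound state of HSP70, was at 153 ± 1.60 and 214 ± 13.9 CPM, 1.40-fold higher (adjusted p = 0.00157). The lower calls of CHORDC1 and HSPBP1 were lost under 7 and 1 of 13 alternatives.

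The cytosolic chaperonin CCT, which folds actin and tubulin, and prefoldin, which feeds it, had 8 of 14 genes lower and 1 higher (64.3% called against 32.7% over all genes, 57.1% lower against 16.1%; median -0.33). VBP1 was at 100.2 ± 5.91 and 60.4 ± 4.74 CPM, 1.66-fold lower (adjusted p = 2.29e-04). PFDN1 was 1.68-fold lower (adjusted p = 6.65e-04), and CCT2 was at 547 ± 27.4 and 384 ± 15.4 CPM, 1.42-fold lower (adjusted p = 0.00108). The exception, CCT5, named after its value was seen, was 1.33-fold higher (adjusted p = 0.00361), with 30.1% of its exon length under exons of other genes. Of the lower calls, CCT4 and PFDN6 were each lost under 5 of 13 alternatives and CCT8 under 2. Those of TCP1, CCT2, CCT3, PFDN1 and VBP1, and the higher call of CCT5, were kept in all 13.

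**Figure D4:**
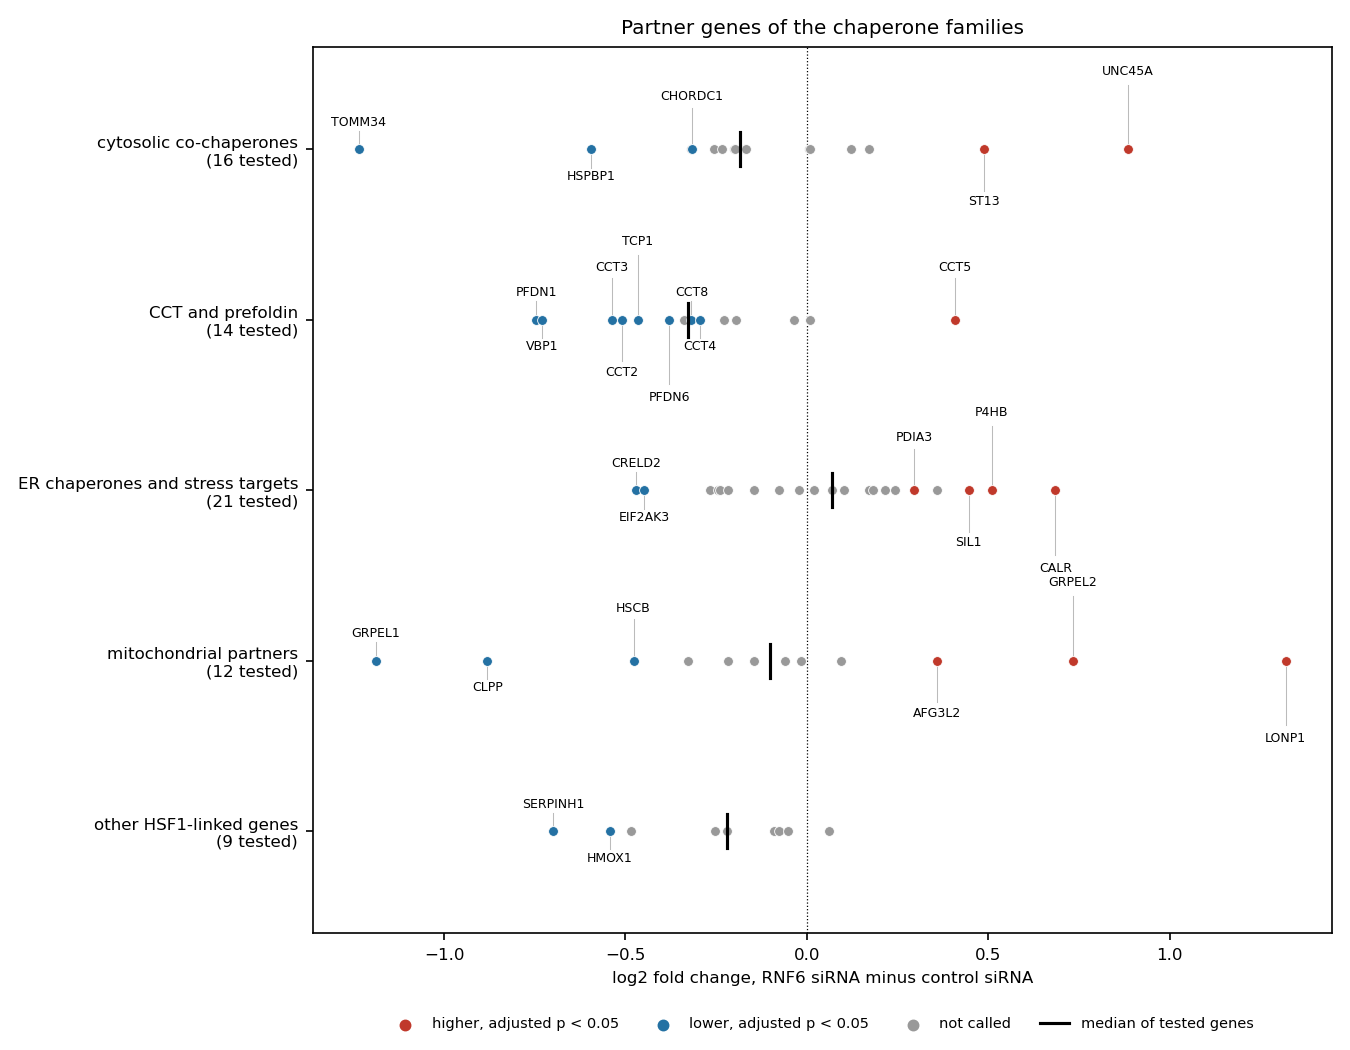
Log2 fold change (RNF6 siRNA minus control siRNA) of partner genes outside the symbol rule, by list, with called genes coloured and black bars at the medians. CCT and prefoldin genes lie mostly left of 0 with CCT5 on the right, and the mitochondrial partners spread from GRPEL1 to LONP1.

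Mitochondrial partners split, with 3 higher and 3 lower of 12 (50% called against 32.7% over all genes, median -0.10). LONP1, the matrix AAA protease, was at 73.4 ± 1.79 and 183 ± 17.4 CPM, 2.495-fold higher (adjusted p = 3.08e-06). GRPEL1, the nucleotide exchange factor of HSPA9, was at 82.0 ± 8.71 and 36.0 ± 2.47 CPM, 2.28-fold lower (adjusted p = 1.28e-05), and the protease subunit CLPP was at 61.1 ± 11.3 and 33.1 ± 6.16 CPM, 1.84-fold lower (adjusted p = 0.00105). GRPEL2, the paralogue of GRPEL1 and named after its value was seen, was 1.66-fold higher (adjusted p = 0.00119). The lower call of HSCB and the higher call of AFG3L2 were lost under 6 and 4 of 13 alternatives.

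Of 21 ER chaperones and stress targets, 4 were higher and 2 lower (28.6% called against 32.7% over all genes, median 0.07). CALR, a lectin chaperone, was at 615 ± 73.9 and 988 ± 80.3 CPM, 1.61-fold higher (adjusted p = 5.21e-04), and the disulfide isomerase P4HB at 674 ± 40.3 and 959 ± 79.8 CPM, 1.42-fold higher (adjusted p = 0.00193). EIF2AK3 (PERK), a sensor of ER stress, was 1.36-fold lower (adjusted p = 0.0242), a call lost without control 3 (0.0874), RNF6 siRNA 1 (0.0659) or RNF6 siRNA 2 (0.0780). Transcription factors of the response, named after their values were seen, did not pass: XBP1 had a log2 fold change of -0.14, ATF4 of 0.07 and DDIT3 of 0.36 (adjusted p = 0.0962). The higher calls of SIL1 and PDIA3 and the lower call of CRELD2 were each lost under 5 of 13 alternatives.

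Of 9 tested HSF1 targets and regulators outside the symbol rule, 2 were lower and none was higher (median -0.22). The 22.2% called is below the 32.7% over all genes. SERPINH1, the collagen chaperone HSP47, was at 62.2 ± 5.26 and 38.2 ± 3.05 CPM, 1.62-fold lower (adjusted p = 5.14e-04), and HMOX1, which degrades haem, was 1.46-fold lower (adjusted p = 0.00679).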

How the data were processed

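The 6 libraries were deposited as raw read counts per gene symbol; the authors aligned reads to hg19 (GRCh37) with TopHat2 2.0.11 and counted with HTSeq, per the submitters' processing notes. Whether counting used strand was not given in the sources used here. Rows that name no gene (27.3% to 29.4% of reads per library) were left out.

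Counts were tested with edgeR 4.0.16 (R 4.3.3): TMM scaling, filterByExpr (minimum count 10), robust quasi-likelihood test on group alone, Benjamini-Hochberg adjustment over 14685 genes, called at an adjusted p of 0.05. The script was tested on simulated counts. The 95% intervals use edgeR's degrees of freedom (9.95 to 13.0). Replicates differed by more than sampling noise in each pair. Alternatives used other scalings and filters, DESeq2 1.42.0, limma-voom (limma 3.58.1), a replicate block and leaving out each library.

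Always named were HSF1, HSPH1, HSPA4, HSPD1 and RNF6; then, per family and compartment, up to 4 called genes with the smallest adjusted p and the most abundant gene; called genes of at least 2-fold; and up to 3 called genes per partner list. From each marker list the most abundant was named. Any other gene was named after its values were seen. Compartments and lists were assigned by hand, and genes and lists were chosen with earlier results of these data known. Exon overlaps and lengths are from GENCODE 29 (GRCh38), with 81 of the 82 genes matched. No coordinates were moved between builds.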

Additional observations from a re-analysis of the deposited data

How the results depend on the processing

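Neither RNF6 nor any tested member or partner gene named here changed direction past the threshold under any of the 13 alternatives. The marker genes and pseudogenes were not followed through them. Of the 24 called genes, 10 stayed called under all 13 (HSPD1 and DNAJC22 higher; HSF1, HSPA4, HSPH1, HSPA12A, BAG3, DNAJC2, DNAJC11 and DNAJC25 lower), and 14 were lost under at least 1. Of 47 uncalled genes, 8 were called under at least 1. Both DESeq2 and the fit with no filter on low counts called 1 ER gene higher, against 2.

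Leaving out each library in turn gave 2 to 8 genes higher and 11 to 21 lower, against 5 and 19. For the cytosol and nucleus the ranges were 0 to 2 higher and 7 to 14 lower, for the ER 0 to 3 higher and 1 lower, and for the mitochondrion 1 higher and 1 to 4 lower. The largest rise came without control 1 (8 higher, 21 lower), where calls over all genes also rose, to 2910 higher and 2967 lower. The lower calls fell to 11 without control 3, RNF6 siRNA 2 or RNF6 siRNA 3. Calls over all genes also fell, to 1514 higher and 1595 lower without control 3, against 2442 and 2364. They were 1871 and 1806 without RNF6 siRNA 2, and 1529 and 1478 without RNF6 siRNA 3. With 2 libraries in an arm, its spread is estimated together with the other arm.

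The replicate numbers do not pair the libraries: same-numbered deviations from the group means correlate at -0.54, -0.32 and 0.06. No library correlates best with its own number. The highest correlations are 0.55 (control 2 with RNF6 siRNA 1) and 0.37 (control 1 with RNF6 siRNA 2). With the replicate block, 2 genes were higher and 8 lower; in the cytosol and nucleus 0 and 6, in the ER 0 and 1, and in the mitochondrion 1 and 1. All 14 calls lost under at least 1 alternative were lost with the block, at adjusted p from 0.0557 (HSPB1) to 0.155 (DNAJA4) in edgeR's quasi-likelihood test. Over all genes the block gave 1421 higher and 1321 lower.

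Too few reads kept 11 genes from being tested, none of them above a group mean of 0.360 CPM.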

Other observations

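The pseudogenes of these families that the symbol rule leaves out had enough reads to test in 6 cases. HSPD1P1 was at 14.7 CPM in controls and 26.8 after RNF6 siRNA (adjusted p = 2.02e-04, edgeR's quasi-likelihood test), the same direction as HSPD1, its parent gene. HSP90AB3P, a copy of HSP90AB1, was the most abundant, at 101 and 104 CPM (adjusted p = 0.798), and like its parent it had no call. HSPE1P2, HSPE1P3, HSPE1P4 and DNAJC19P9 were at or below 1.67 CPM and had no call. Reads of a parent gene and its near-identical copies cannot be told apart here.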
